A study of Sus scrofa with 6 samples.

Results

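The genes followed here encode signals that stromal cells send to the gut epithelium, together with 1 receptor that marks many of the senders. They are RSPO3, WNT2B, WNT4, WNT5A, GREM1, BMP4, BMP5, BMP2, NRG1 and PDGFRA, chosen by symbol, and all 10 were among the 20648 genes of the count files. They were read in piglet ileum by scRNA-seq, which tags each captured transcript with a cell barcode and a unique molecular identifier (UMI). There were 6 libraries, 1 each from birth (day 0) and from days 1, 3, 7, 14 and 21. The labels give male animals for all of them. All groups were untreated large white piglets fed maternal milk, 5 at each age. The cells were released from scraped mucosa with EDTA and TrypLE, a preparation aimed at epithelium.

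In the intestine, WNT ligands hold the stem cells of the crypt in a dividing state, and R-spondins strengthen that signal by binding LGR receptors and sparing WNT receptors from removal by RNF43 and ZNRF3. BMP ligands act against it and favour differentiation towards the villus, while GREM1 binds BMPs and keeps them off their receptors near the crypt base. NRG1 is an EGF-family ligand of ERBB3 and ERBB4. Fibroblasts with much PDGFRA lie directly under the epithelium and are known as a source of BMPs and WNT5A, whereas fibroblasts with little PDGFRA around the crypts are known as a source of GREM1 and R-spondins.

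On the Sscrofa11.1 assembly the members lie apart from each other. RSPO3 lies on chromosome 1 from 35985985 to 36066432, GREM1 on chromosome 1 from 136617041 to 136629293, and BMP4 on chromosome 1 from 183415989 to 183422888. WNT2B lies on chromosome 4 from 107906141 to 107923343, WNT4 on chromosome 6 from 80110238 to 80138165, and WNT5A on chromosome 13 from 37344684 to 37367215. BMP5 is on chromosome 7 from 25344924 to 25468430, BMP2 on chromosome 17 from 15750487 to 15762982, NRG1 on chromosome 15 from 52625550 to 53688003, and PDGFRA on chromosome 8 from 40966568 to 41021440. All are annotated as protein-coding genes.

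Barcodes with at least 1000 UMIs and 500 genes were kept, between 10836 (day 0) and 15956 (day 14) per library, from libraries of 77391932 to 100348769 UMIs. Of 75427 distinct kept barcodes, 672 occurred in more than 1 library. Each pair of libraries shared 31 to 68, where 18.1 to 32.4 would be shared by independent draws. Sources were defined by UMI sums. Fibroblast barcodes had at least 5 UMIs of COL3A1 and COL1A1 and none of PECAM1. Endothelial barcodes had at least 3 of PECAM1 and FLT1, muscle barcodes at least 5 of RERGL, RASL12 and ACTA2, and epithelial barcodes at least 5 of EPCAM, KRT8 and VIL1. A barcode counted for a source only if it met 1 of these gates. Levels are UMIs of a gene per 10000 UMIs summed over a source, with exact Poisson 95% intervals that cover counting error only. The 3′ assay counts transcripts and not their length, and levels were compared between sources and days, not between genes.

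Fibroblast barcodes were found at the 3 youngest ages only in numbers that could be summed: 227 on day 0, 307 on day 1 and 138 on day 3, against 1 on day 7, 1 on day 14 and 0 on day 21. All 6 fibroblast markers were present in them on days 0, 1 and 3, and summed to between 68.2 and 93.0 per 10000 (the list holds PDGFRA). Endothelial barcodes fell from 246 and 324 on days 0 and 1 to 64 on day 3, and muscle barcodes numbered 57, 71 and 21. Their own markers were high on days 0 and 1, at 25.7 and 20.3 per 10000 for the endothelial list and 44.4 and 79.7 for the muscle list. Pericyte markers stood at 44.8, 32.9 and 17.6 in muscle barcodes of days 0, 1 and 3, so the muscle gate does not part muscle cells from pericytes. Fibroblast markers stood at 9.19, 9.44 and 7.61 in muscle barcodes, and muscle markers at 3.91, 4.55 and 7.62 in fibroblast barcodes. On day 3 the endothelial list fell to 5.53 per 10000 in endothelial barcodes, below their B lineage markers at 15.6, so that this gate went against its name from day 3 on. The muscle list stood at 36.8 on day 3, with B lineage markers at 9.04. On day 7, 94.7% of 38 endothelial barcodes held a UMI of the leukocyte gene PTPRC, and their B lineage markers summed to 26.1 per 10000 against 2.16 for the endothelial list. Of the 55 endothelial barcodes of day 14 and the 22 of day 21, 100% and 95.5% held a PTPRC UMI, CDH5, KDR, VWF, ESAM and TIE1 were at 0, and B lineage markers summed to 27.7 and 32.3 per 10000. Muscle barcodes of days 14 and 21 were alike, with B lineage markers at 28.3 and 33.4. On day 3, 60.9% of endothelial, 38.1% of muscle and 26.1% of fibroblast barcodes held a PTPRC UMI, against 14.6%, 7.02% and 11.0% on day 0. Epithelial markers summed to 12.6 and 13.5 per 10000 in endothelial barcodes of days 0 and 1. Counts of members are therefore also given for days 0, 1 and 3 and for days 0 and 1 alone.

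Sources were compared within libraries by edgeR's quasi-likelihood test on summed UMIs, with the library as a block, over the 19 sums of at least 20 barcodes. A gene was called at a Benjamini-Hochberg adjusted p under 0.05 over all 10720 genes tested and a fold of at least 2. RSPO3 was too sparse for the filter on low counts, which left 9 members. The members had been chosen with earlier results of these data known, so counts of them are not independent of these data. All 9 tested members were higher in fibroblast than in endothelial barcodes, where 8.68% of all genes were higher. Over epithelial barcodes 8 were higher (14.1% of all genes), the exception being BMP2. Over muscle barcodes 5 were higher (2.48% of all genes), namely WNT4, WNT5A, BMP4, NRG1 and PDGFRA. The median log2 difference of the tested members was 6.28 against endothelial, 6.40 against epithelial and 3.59 against muscle barcodes, where the medians of all genes were -0.0026, -0.037 and 0.014. With days 0, 1 and 3 alone all 10 members were tested, and 9 were higher than in endothelial (9.97% of all genes), 9 than in epithelial (16.1%) and 6 than in muscle barcodes (3.36%). With days 0 and 1 alone the counts were 9 (10.5%), 9 (19.5%) and 6 (3.22%). The muscle comparison was the least stable. It fell from 5 members to 1 without the library of day 0 (0.376% of all genes) and to 1 without that of day 1 (0.743%). With barcodes meeting both gates kept in both sources no gene at all was called, so the 0 members there say nothing of the members.

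**Figure D1:**
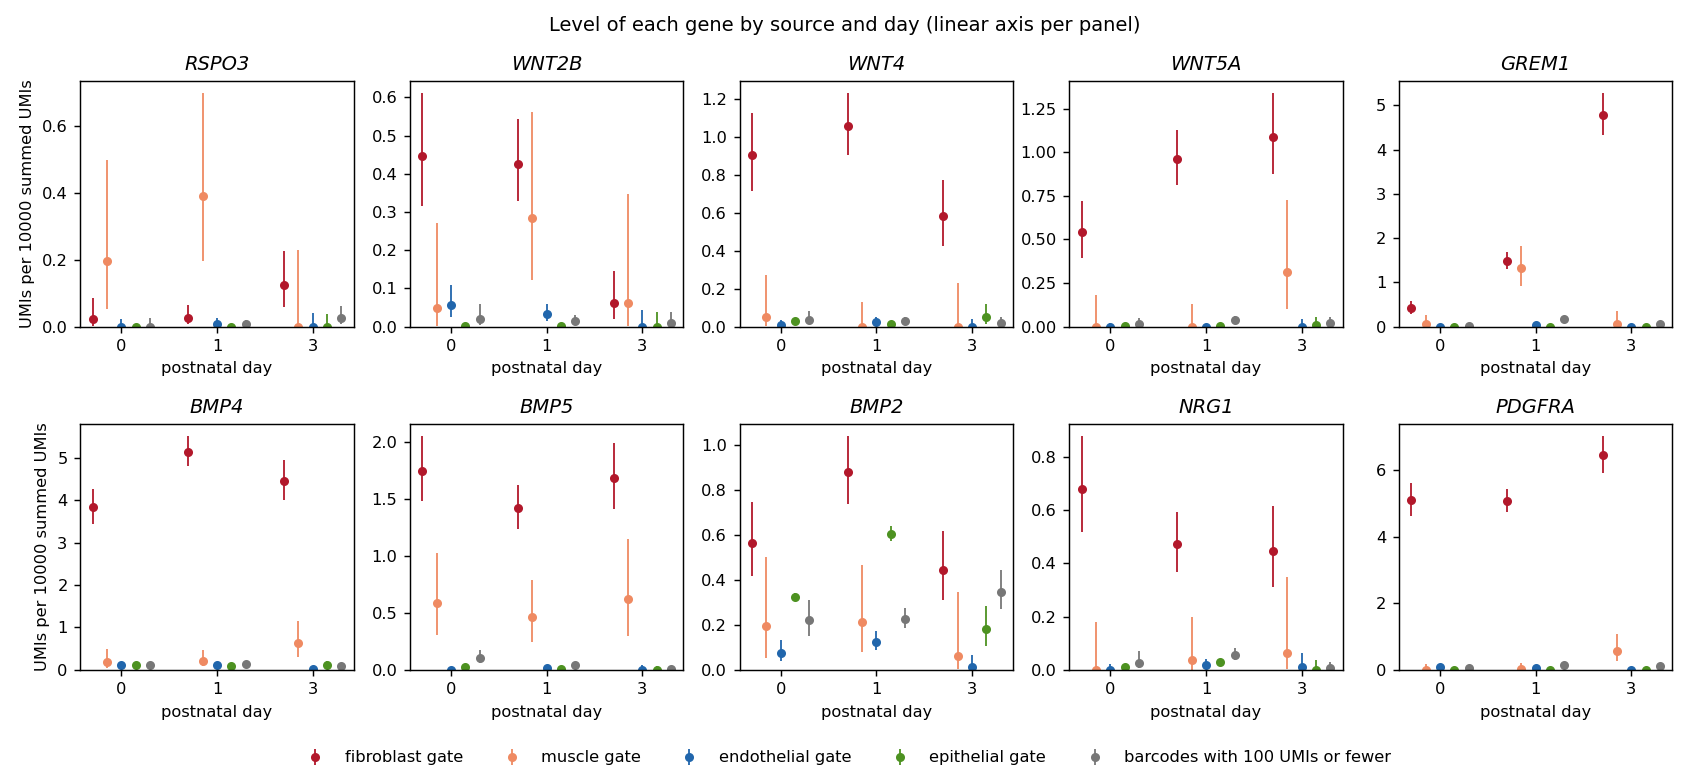
Level of each gene (UMIs per 10000 summed UMIs, linear axis from 0 in each panel) on days 0, 1 and 3 in fibroblast, muscle, endothelial and epithelial barcodes and in barcodes with 100 UMIs or fewer; points are single libraries and bars exact Poisson 95% intervals. Fibroblast barcodes have the highest level of the 4 sources in all 3 libraries for 8 genes, and the share of all genes was not taken. RSPO3 is higher in muscle barcodes on days 0 and 1, and WNT2B is about equal in fibroblast and muscle barcodes on day 3.

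WNT2B, a WNT ligand that activates the canonical pathway, was at 0.446 (0.316 to 0.612), 0.426 (0.330 to 0.542) and 0.0618 (0.0201 to 0.144) per 10000 in fibroblast barcodes of days 0, 1 and 3. The last value rests on 5 UMIs and lies below the intervals of the other 2 libraries. Endothelial barcodes had 0.0571, 0.0318 and 0, and muscle barcodes 0.0489, 0.285 and 0.0624, so fibroblast and muscle intervals overlapped on days 1 and 3. WNT2B was 3.39 log2 units higher in fibroblast than in endothelial barcodes (SE 0.61, adjusted p = 2.7e-03 by edgeR) and 8.20 higher than in epithelial barcodes (SE 0.75, adjusted p = 6.4e-06), where it had 6 UMIs in all on days 0, 1 and 3. DESeq2 did not call it over endothelial barcodes (adjusted p = 0.072). WNT2B was also 1 of 2 members higher in endothelial than in epithelial barcodes (14.1% of all genes higher), with a log2 difference of 4.81 (SE 0.76, adjusted p = 3.4e-04 by edgeR). From day 3 on, the endothelial sums of this fit held more B lineage than endothelial markers. Without the library of day 1 it did not pass the filter on low counts and was not tested.

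WNT4, which is found in stromal cells of many organs, was at 0.904 (0.713 to 1.13), 1.06 (0.903 to 1.23) and 0.581 (0.427 to 0.773) per 10000 in fibroblast barcodes of days 0, 1 and 3. No library of endothelial or muscle barcodes exceeded 0.0489 on those days. Epithelial barcodes had 0.0274, 0.0140 and 0.0501, while barcodes with 100 UMIs or fewer, taken as a stand-in for free RNA, had 0.0342, 0.0298 and 0.0208. The epithelial level was thus not above that of free RNA on days 0 and 1, although the many epithelial barcodes held 157 of 535 WNT4 UMIs. The log2 difference was 5.94 over endothelial (SE 0.67, adjusted p = 5.6e-05 by edgeR), 5.78 over muscle (SE 1.01, adjusted p = 6.4e-03) and 4.89 over epithelial barcodes (SE 0.60, adjusted p = 3.8e-05).

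WNT5A, the main ligand of the non-canonical WNT pathway in the gut, was at 0.540 (0.395 to 0.720), 0.962 (0.814 to 1.13) and 1.09 (0.873 to 1.34) per 10000 in fibroblast barcodes. Day 0 lies below both later days. No WNT5A UMI was found in any endothelial barcode of the 6 libraries, and over days 0, 1 and 3 the fibroblast level was at least 155-fold higher than the endothelial floor of 3 UMIs over the group (exact 95% lower limit of the ratio 126). Muscle barcodes had 0 on days 0 and 1 and 5 UMIs on day 3. The call over muscle barcodes (log2 difference 3.59, SE 0.85, adjusted p = 0.045 by edgeR) was lost without the library of day 0, day 1 or day 21 and with DESeq2 (adjusted p = 0.080).

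RSPO3, an R-spondin, was the sparsest member. It had 8, 34 and 22 UMIs in all kept barcodes of days 0, 1 and 3, and 1 in the later 3 libraries together. Fibroblast barcodes held 2, 4 and 10 of them, barcodes meeting both the fibroblast and the muscle gate 1, 12 and 8, and muscle barcodes 4, 11 and 0. Per 10000 UMIs the muscle level was 0.196 and 0.392 on days 0 and 1, above the fibroblast 0.0235 and 0.0258, whereas on day 3 it was 0 against 0.124. No epithelial barcode held an RSPO3 UMI, which over days 0, 1 and 3 put the fibroblast level at least 111-fold and the muscle level at least 518-fold above the epithelial floor of 3 UMIs over the group. With the counting error of the 16 and 15 UMIs, the exact 95% lower limits of these ratios were 80.4 and 372. With days 0, 1 and 3 alone, where RSPO3 passed the filter, it was called higher in fibroblast than in epithelial barcodes (log2 difference 7.43, adjusted p = 3.4e-03 by edgeR), while fibroblast and muscle barcodes differed by -2.03 (SE 1.08, adjusted p = 0.37). Leaving out barcodes with a PTPRC UMI gave -3.90 (adjusted p = 0.040), lower in fibroblast barcodes.

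GREM1, the secreted BMP antagonist, was at 0.411 (0.286 to 0.571), 1.49 (1.30 to 1.69) and 4.79 (4.32 to 5.29) per 10000 in fibroblast barcodes, but all 35 UMIs of day 0 lay in 1 of 227 barcodes, and 14 and 15 barcodes held those of days 1 and 3. The intervals do not overlap, yet they treat UMIs of 1 barcode as independent and are therefore too narrow for GREM1. Muscle barcodes had 0.0489, 1.32 and 0.0624, of which day 1 overlaps the fibroblast interval. GREM1 was higher in fibroblast than in endothelial (log2 difference 7.06, SE 1.02, adjusted p = 6.5e-04 by edgeR) and epithelial barcodes (9.97, SE 1.09, adjusted p = 3.1e-05) and was not called against muscle (2.20, SE 0.86, adjusted p = 0.20). It was 1 of 3 members, with BMP4 and BMP5, called higher in muscle than in endothelial barcodes (4.7% of all genes). That call was lost without the library of day 0 (adjusted p = 0.13) or of day 1 (adjusted p = 0.31), and with DESeq2 (3.80, adjusted p = 0.17). The library of day 1 held 37 of the 39 GREM1 UMIs of muscle barcodes.

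BMP4 was at 3.84 (3.43 to 4.28), 5.15 (4.80 to 5.52) and 4.46 (4.02 to 4.95) per 10000 in fibroblast barcodes. The log2 difference was 5.64 over endothelial (SE 0.44, adjusted p = 1.2e-06 by edgeR), 3.80 over muscle (SE 0.47, adjusted p = 2.9e-04) and 5.16 over epithelial barcodes (SE 0.44, adjusted p = 4.0e-07). The call over muscle held without each library in turn, which was true of no other member. Outside the fibroblasts it was found thinly everywhere, at 0.0400 to 0.104 per 10000 in B lineage barcodes of the 6 libraries, where free RNA had 0.0656 to 0.147. Its calls in muscle over endothelial (log2 difference 1.85, adjusted p = 0.032) and over epithelial barcodes (1.37, adjusted p = 0.045) were lost with days 0, 1 and 3 alone (adjusted p = 0.099 and 0.14). The latter was also lost without any 1 of the 6 libraries, and the former without any 1 other than that of day 7.

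BMP5 kept nearly the same level, at 1.75 (1.48 to 2.05), 1.42 (1.24 to 1.62) and 1.68 (1.41 to 1.99) per 10000 in fibroblast barcodes of days 0, 1 and 3, with overlapping intervals. It also had the steadiest level in muscle barcodes, at 0.587, 0.463 and 0.624. Fibroblasts exceeded endothelial barcodes by 7.67 log2 units (SE 0.72, adjusted p = 1.4e-05 by edgeR) and epithelial barcodes by 6.40 (SE 0.60, adjusted p = 4.3e-06), but were not called against muscle (1.56, SE 0.53, adjusted p = 0.13). Muscle was higher than endothelial (6.10, SE 0.79, adjusted p = 2.9e-04) and epithelial barcodes (4.84, SE 0.63, adjusted p = 8.3e-05), calls that held with days 0, 1 and 3 alone. BMP5 in epithelial barcodes, at 0.0286, 0.00840 and 0, was below free RNA in all 3 libraries.

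BMP2 was the only tested member not called higher in fibroblast than in epithelial barcodes. Fibroblast barcodes had 0.563 (0.415 to 0.747), 0.878 (0.737 to 1.04) and 0.445 (0.312 to 0.616) per 10000, and epithelial barcodes 0.325, 0.605, 0.180, 0.565 and 0.359 on days 0, 1, 3, 7 and 14. Free RNA stood at 0.219, 0.228, 0.348, 0.0285 and 0.0122 on the same days, so that the epithelial level was above it on days 0, 1, 7 and 14 and below it on day 3. On days 0, 1 and 3 the fibroblast level was the higher one in all 3 libraries, 1.66 times as high over the 3 (1.44 to 1.91, counting error only). Over all sums, fibroblast and epithelial barcodes were not called different (log2 difference 0.34, SE 0.51, adjusted p = 0.67 by edgeR). Endothelial barcodes were lower than epithelial ones (log2 difference -3.16, SE 0.50, adjusted p = 1.6e-04; 17.1% of all genes lower), as were muscle barcodes (-2.08, SE 0.65, adjusted p = 0.026; 14.4% of all genes lower). The muscle call was lost without the library of day 0, 1 or 14 and with barcodes of several gates kept in each (-0.92, adjusted p = 0.25 by edgeR). It was also lost without PTPRC-positive barcodes (-1.27, adjusted p = 0.071), which left muscle sums of days 0 and 1 only. BMP2 was the only member lower in either comparison.

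NRG1 was at 0.681 (0.517 to 0.880), 0.472 (0.370 to 0.593) and 0.445 (0.312 to 0.616) per 10000 in fibroblast barcodes, with overlapping intervals. The ratio of day 1 over day 0 was 0.693 (0.484 to 0.995, counting error only), and that of day 3 over day 0 was 0.654 (0.419 to 1.01). Endothelial barcodes had 0, 0.0176 and 0.0114, and muscle barcodes 0, 0.0356 and 0.0624. The log2 difference was 6.28 over endothelial (SE 0.79, adjusted p = 1.4e-04 by edgeR), 4.29 over muscle (SE 1.07, adjusted p = 0.040) and 4.79 over epithelial barcodes (SE 0.69, adjusted p = 1.4e-04). The muscle call was lost without the library of day 0, 1 or 3. NRG1 was also found in barcodes outside the 4 gates with at least 3 UMIs of CSF1R, CD14, FCN1 and S100A12, termed myeloid here. These had 104 NRG1 UMIs in 696 barcodes on day 1, at 0.254 (0.207 to 0.307) per 10000, and 27 UMIs in 61 barcodes on day 14, at 1.14 (0.751 to 1.66). A UMI was found in 12.1% and 27.9% of these barcodes, against 0.124% and 0.0205% of B lineage barcodes, and free RNA had 0.0574 and 0.00811 per 10000. No NRG1 UMI was found in the 17 and 5 myeloid barcodes of days 7 and 21. Of the 114 NRG1 UMIs in myeloid barcodes of days 0, 1 and 3, 104 came from day 1. Epithelial barcodes of day 7 had 0.139 (0.0896 to 0.204) per 10000, with 25 UMIs in 256 barcodes, the highest epithelial level of the 6 libraries.

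PDGFRA, the receptor of PDGFA, was at 5.11 (4.64 to 5.61), 5.08 (4.73 to 5.45) and 6.46 (5.91 to 7.03) per 10000 in fibroblast barcodes. Epithelial barcodes held 7 PDGFRA UMIs in all and muscle barcodes 10, of which 9 came from day 3. The log2 difference was 6.85 over endothelial (SE 0.86, adjusted p = 2.4e-04 by edgeR), 5.11 over muscle (SE 0.89, adjusted p = 7.9e-03) and 11.74 over epithelial barcodes (SE 1.09, adjusted p = 9.0e-06). DESeq2 did not call it over endothelial (log2 difference 7.07, SE 2.90, adjusted p = 0.097) or muscle barcodes (6.31, SE 2.98, adjusted p = 0.26). PDGFRA was the other member higher in endothelial than in epithelial barcodes (log2 difference 4.90, adjusted p = 4.3e-03; 14.1% of all genes higher), with 24 endothelial UMIs, and that call was lost without the library of day 1. Its endothelial level, at 0.0698, 0.0459 and 0 per 10000 on days 0, 1 and 3, was below that of free RNA (0.143 and 0.125) on days 1 and 3. Over epithelial barcodes, 6 members were higher in muscle (12.6% of all genes): WNT2B, WNT5A, GREM1, BMP4, BMP5 and PDGFRA. Without the library of day 1 the count was 3, WNT5A rested on the 5 UMIs of day 3, and the PDGFRA call was lost without day 3.

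Over all kept UMIs of the 6 libraries, 5 of the 10 members had more than 50% of their UMIs in fibroblast barcodes. The share of all genes past 50% was not taken. Fibroblast barcodes were few, at 2.09%, 2.67% and 1.21% of kept barcodes on days 0, 1 and 3. Over the 6 libraries, fibroblast barcodes held 77.3% of PDGFRA UMIs (95% Clopper-Pearson interval 75.6 to 79.1%), 65.8% of WNT5A, 59.1% of GREM1, 56.9% of BMP5 and 52.3% of WNT4. They held 47.0% of WNT2B, 29.4% of BMP4, 24.6% of RSPO3, 24.3% of NRG1 and 5.29% (4.63 to 6.01%) of BMP2. On days 0, 1 and 3 alone they held 50.2% of WNT2B and 45.7% of BMP4. Of the 3969 BMP2 UMIs of days 0, 1 and 3, 69.6% lay in epithelial barcodes. Barcodes meeting the fibroblast and muscle gates together held 32.8% of RSPO3, 25.2% of GREM1 and 20.3% of WNT2B UMIs on these days, and at most 14.4% of any other member.

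**Figure D2:**
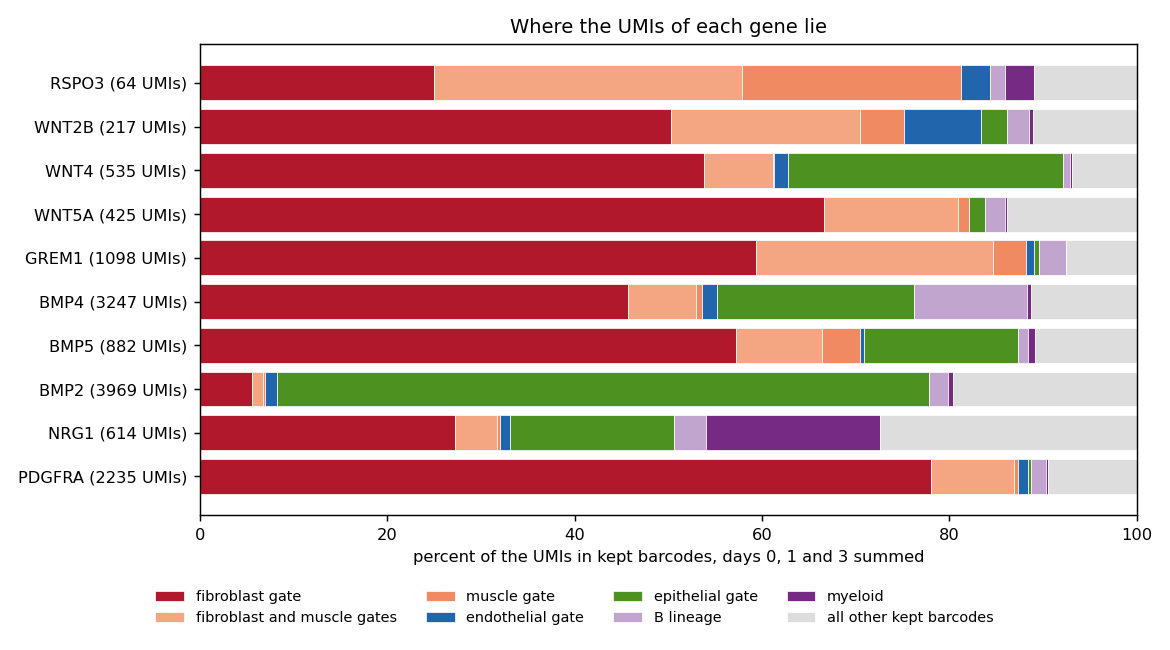
Percent of the UMIs of each gene in kept barcodes, days 0, 1 and 3 summed, by source; the number of UMIs stands beside each name, and B lineage and myeloid barcodes are those meeting none of the 4 gates. Fibroblast barcodes hold 78.0% of PDGFRA and 66.6% of WNT5A but 5.54% of BMP2, and myeloid barcodes hold 18.6% of NRG1 and at most 3.13% of any other gene.

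With 1 library per age there is no replicate of a day, so ratios between days carry an exact interval for counting error and no p-value. A ratio was counted when it was at least 2-fold with at least 10 UMIs over both libraries. From day 0 to day 3, 3 members were past that fold upwards, where 14.4% of genes were, and 1 downwards, where 7.02% were. GREM1 was 11.7 times as high on day 3 (8.23 to 17.0, with all its UMIs of day 0 in 1 barcode), RSPO3 5.27 times (1.12 to 49.5, 10 UMIs against 2) and WNT5A 2.02 times (1.40 to 2.95), while WNT2B was 0.139 times as high (0.0426 to 0.353). The median log2 ratio of all 10397 genes was 0.19. WNT5A fell under 2-fold, at 1.53 to 1.91, in 3 of 6 other ways of taking the barcodes. The other 6 members lay between 0.643 (WNT4) and 1.26 (PDGFRA) times the level of day 0. From day 0 to day 1 GREM1 alone was past 2-fold, at 3.62 times (2.53 to 5.32), where 8.94% of genes were higher, and none was past 2-fold downwards, where 5.29% of genes were. From day 1 to day 3, GREM1 (3.22 times, 2.73 to 3.81) and RSPO3 (4.79 times, 1.38 to 20.9) were higher, where 11.8% of genes were, and WNT2B (0.145 times, 0.0456 to 0.356) was lower, where 8.33% were. PTPRC-positive barcodes rose over the same days, from 11.0% to 26.1% of fibroblast barcodes. Without them GREM1 was 10.0, WNT2B 0.167 and WNT5A 2.55 times as high on day 3 as on day 0, and RSPO3 2.06 times. The share of fibroblast barcodes that also met the muscle gate differed as well, with 67, 77 and 82 such barcodes, and with these kept the WNT2B ratio was 0.419. With barcodes weighted equally GREM1 was 18.6 and RSPO3 2.11 times as high.

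**Figure D3:**
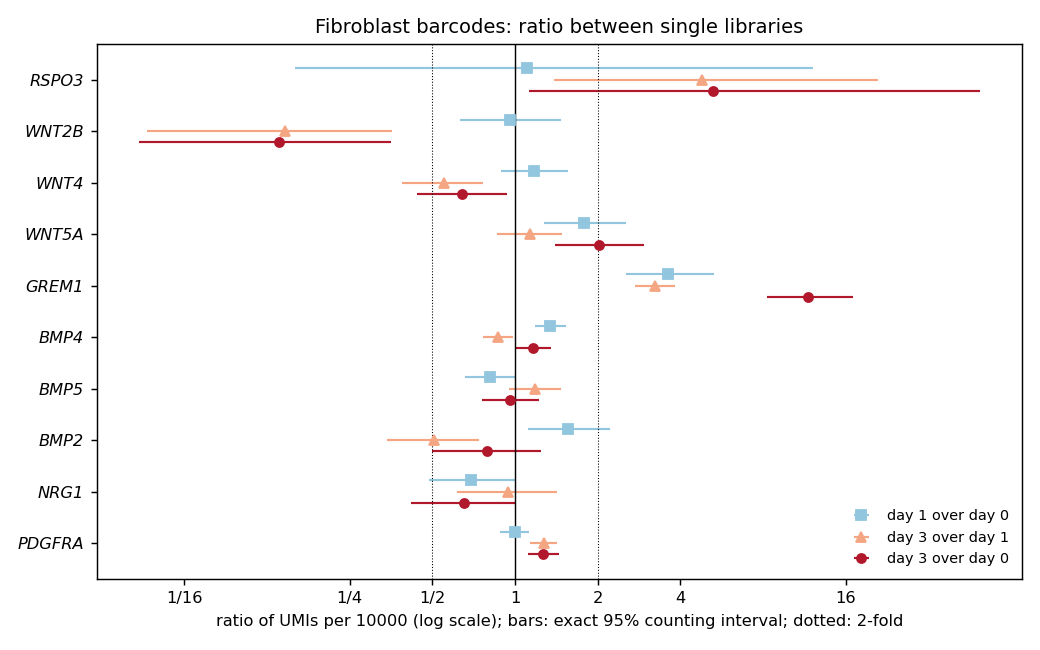
Ratio of the fibroblast level of each gene between single libraries (log axis): day 1 over day 0 (squares), day 3 over day 1 (triangles) and day 3 over day 0 (circles), with exact 95% intervals for counting error; dotted lines mark 2-fold. GREM1 lies at 11.7 and WNT2B at 0.139 for day 3 over day 0, while BMP4, BMP5 and PDGFRA stay within 2-fold in every comparison.

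GREM1 was not spread over the fibroblasts. On day 0 all 35 of its fibroblast UMIs lay in 1 barcode. On day 1, 4.56% of fibroblast barcodes had a GREM1 UMI, with up to 59 in a barcode, and on day 3, 10.9%, with up to 73. B lineage barcodes, which should lack the gene, had a UMI in 0% (at most 0.149% by the Clopper-Pearson interval), 0.297% and 0.244% on days 0, 1 and 3. The 10% of fibroblast barcodes with the most GREM1 held 99.7% or more of its UMIs in each library, where the same share for BMP4 was 33.2 to 42.5% and for PDGFRA 37.0 to 46.4%. This share reaches 100% wherever few barcodes hold a UMI, as for RSPO3 in all 3 libraries, and it was 72.7 to 87.0% for WNT5A and 66.7 to 86.2% for NRG1. GREM1 reached 35, 59 and 73 UMIs in a single fibroblast barcode of days 0, 1 and 3, where RSPO3, WNT5A and NRG1 reached at most 4, 11 and 7.

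**Figure D4:**
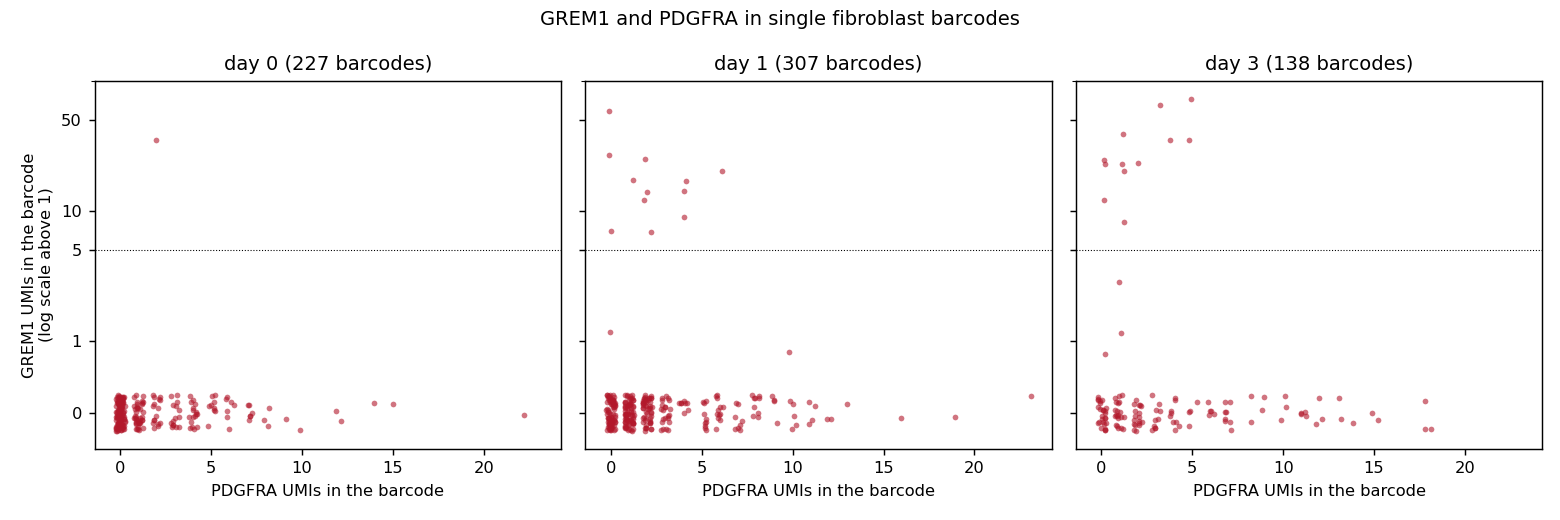
GREM1 UMIs (log axis above 1) against PDGFRA UMIs in single fibroblast barcodes of days 0, 1 and 3; each point is a barcode, moved slightly at random so that equal values can be told apart, and the dotted line marks 5 GREM1 UMIs. Most barcodes are at 0 GREM1 UMIs, 5 have 1 to 3, and the others have 7 or more. Those with 7 or more have at most 6 PDGFRA UMIs, as do most barcodes at 0 GREM1 UMIs.

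Barcodes with at least 5 GREM1 UMIs, a limit set after the values were seen, were then taken from all gates. There were 1, 28 and 17 on days 0, 1 and 3 and none later, with 68.6%, 89.0% and 91.2% of all kept GREM1 UMIs. Their median of total UMIs was 9203, 6524 and 9656. Fibroblast barcodes without a GREM1 UMI among 1000 drawn had 3296, 4533.5 and 3941. Whether the deeper GREM1 barcodes were doublets was not tested. The fibroblast gate held 1, 12 and 12 of them, the fibroblast and muscle gates together 0, 11 and 4, and the muscle gate alone 0, 3 and 0. They had no UMI of WNT4, WNT5A or NRG1 in any of the 3 libraries. In fibroblast barcodes without GREM1, WNT4 was at 1.12 and 0.710, WNT5A at 1.02 and 1.33 and NRG1 at 0.500 and 0.544 per 10000 on days 1 and 3. BMP5 had 0 and 3 UMIs in the GREM1 barcodes of those days, at 0 and 0.143 per 10000 against 1.51 and 2.05. BMP4 was at 0.647 and 1.34 against 5.40 and 5.17, PDGFRA at 2.16 and 1.57 against 5.14 and 7.51, and BMP2 at 0.108 and 0.143 against 0.924 and 0.529. Within the fibroblast barcodes alone, split by a GREM1 UMI among 1000 drawn, WNT4, WNT5A and NRG1 again had no UMI with GREM1 on either day. BMP5 had none with GREM1 there either. BMP4 was at 0.181 (0.0777 to 0.358) and 0.270 (0.156 to 0.439) times and PDGFRA at 0.633 (0.414 to 0.928) and 0.252 (0.158 to 0.383) times the level without it.

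The GREM1 barcodes held 9 of 34 RSPO3 UMIs on day 1 and 16 of 22 on day 3, at 0.485 and 0.763 per 10000, where fibroblasts without GREM1 had 3 UMIs and none. Of these GREM1 barcodes, 16 of 28 and 5 of 17 fell outside the fibroblast gate or met a second one. Within the fibroblast barcodes alone, split by a GREM1 UMI among 1000 drawn, RSPO3 had 1 UMI with GREM1 and 3 without on day 1, a ratio of 5.94 with an interval of 0.113 to 74.0, so that no difference was detectable. On day 3 it had 10 and 0. Of 27 and 12 kept barcodes with an RSPO3 UMI on days 1 and 3, 13 and 9 also had a GREM1 UMI, and 18 and 6 had at least 5 ACTA2 UMIs. On day 0, none of 6 had GREM1 and 3 had that much ACTA2. WNT2B was at 0.269 and 0.191 in the GREM1 barcodes against 0.452 and 0.0755, with 5 and 4 UMIs.

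Of the genes listed as marks of fibroblast positions, 6 of the 9 of subepithelial fibroblasts were lower in the GREM1 barcodes than in fibroblasts without GREM1 on both days 1 and 3, with intervals below 1, as were 3.21% of 8444 genes with at least 10 UMIs on each day. Of general fibroblast genes outside the gates, LUM was at 0.0439 and 0.339 times, and DCN at 0.384 (0.338 to 0.433) and 1.09 (0.951 to 1.25) times. FOXL1, a transcription factor of subepithelial telocytes, had 3 UMIs and none on days 1 and 3 (0.965 and 0.695 per 10000 in fibroblasts without GREM1), and SOX6 had 1 and none (0.863 and 1.80). POSTN was at 0.285 and 0.352 times and ADAMDEC1 at 0.448 and 0.195 times the level in fibroblasts without GREM1, FOXF2 at 0.375 and 0.376 times, and HHIP at 0.550 and 0.526 times. FOXF1 was at 0.826 (0.470 to 1.36) and 0.760 (0.381 to 1.41) times and GLI1 at 0.768 (0.200 to 2.12) and 0.243 (0.0057 to 1.62) times. F3 was at 0.366 (0.0430 to 1.41) times on day 1 and had no UMI on day 3. Of the crypt-base and adventitial list, C3, a complement protein, was 6.20 and 1.61 times as high, OGN was at 0.793 and 1.05 times, and DPT had 4 and 2 UMIs, at 0.0231 and 0.0290 times. CD81 was at 0.861 and 1.04 times, and ACKR4, CD34, MFAP5 and PI16 had at most 1 UMI each in the GREM1 barcodes of either day. The muscle genes DES and MYH11 were 13.7 and 29.0 times as high on day 1 and 2.02 and 3.11 times on day 3. The fibroblasts without GREM1 had been chosen by their collagen UMIs and not to meet the muscle gate, while the GREM1 barcodes came from all gates, which bears on all these ratios. Of the gate's collagens, COL3A1 was at 0.528 and 0.566 times and COL1A1 at 1.08 and 1.21 times, and PDGFRB was at 0.540 and 0.246 times. The intervals treat UMIs of 1 barcode as independent. For these genes no ratio within the fibroblast barcodes alone is given.

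Split by PDGFRA, the fibroblast barcodes differed in several other members. A PTPRC UMI was found in 11.0%, 12.1% and 26.1% of fibroblast barcodes on days 0, 1 and 3, and the split was not repeated without these. Each barcode was thinned to 1000 UMIs to decide whether PDGFRA was found, which it was in 63 of 227, 96 of 307 and 59 of 138 on days 0, 1 and 3, and levels were then taken from all UMIs. The medians of total UMIs were close with and without PDGFRA, at 3258 against 3499, 4390.5 against 4643 and 3835 against 4337. The intervals cover counting error only. They treat UMIs of 1 barcode as independent and are too narrow for members gathered in few barcodes, such as GREM1, WNT5A and NRG1. NRG1 was 7.85 (4.32 to 15.0), 2.70 (1.66 to 4.40) and 6.11 (2.85 to 14.2) times as high in barcodes with PDGFRA. WNT5A was 6.83 (3.54 to 13.9), 2.97 (2.13 to 4.16) and 7.98 (4.79 to 13.9) times as high. BMP4 ranged from 1.58 to 3.75 times and BMP5 from 1.80 to 4.59 times, with every interval above 1. WNT4 and BMP2 were higher in all 3 libraries too, with intervals that included 1 for WNT4 on days 0 and 1 and for BMP2 on day 0. WNT2B was at 0.928, 0.526 and 0.587 times, with intervals including 1. GREM1 was at 0, 0.950 (0.697 to 1.28) and 0.775 (0.609 to 0.979) times, and none of the 16 RSPO3 UMIs lay in barcodes with PDGFRA among the drawn UMIs, with intervals for RSPO3 that all included 1 (upper limits 15.9, 3.99 and 1.05). Over all UMIs of all kept barcodes, 2 of 6, 2 of 27 and 6 of 12 barcodes with RSPO3 also had a PDGFRA UMI.

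**Figure D5:**
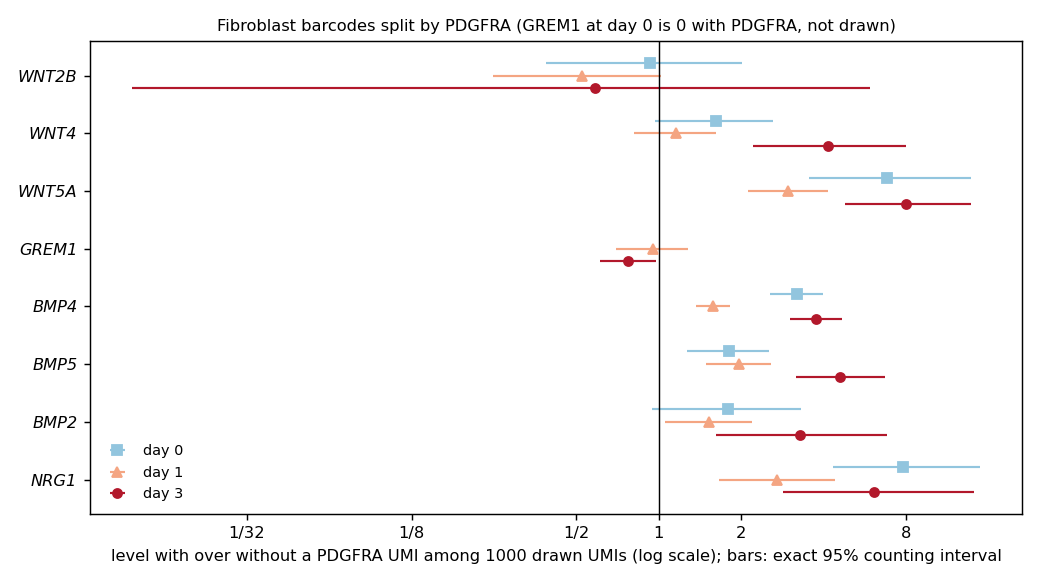
Level of each gene in fibroblast barcodes with a PDGFRA UMI among 1000 drawn UMIs over that in fibroblast barcodes without one (log axis), on days 0, 1 and 3, with exact 95% intervals for counting error. NRG1, WNT5A, BMP4 and BMP5 lie to the right of 1 in all 3 libraries, and WNT2B and GREM1 lie left of it; RSPO3 and the day 0 value of GREM1 are at 0 and not drawn.

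In the same thinned fibroblast barcodes, 11 of 45 pairs of members were found together more often than their shares predict in all 3 libraries. Another 10 were found together less often in all 3. A pair with no joint barcode counted here however small its prediction, so for sparse members this count says little of avoidance. Only 1 thinned barcode held GREM1 on day 0, and only 1 held WNT2B on day 3. No thinned barcode held RSPO3, so its pairs could fall on neither side. The share over pairs of other genes was not taken. PDGFRA with BMP4 was found in 32, 46 and 32 barcodes, where 16.4, 37.2 and 22.2 were predicted. PDGFRA with WNT5A was found in 12, 15 and 12 (4.44, 7.82 and 7.27 predicted), and PDGFRA with NRG1 in 10, 8 and 5 (3.33, 5.32 and 2.57 predicted). GREM1 was found with neither WNT4, WNT5A, NRG1 nor BMP5 in any library, with at most 2.83 barcodes predicted for a pair in a library, too few to show that a pair was avoided. Barcodes are not replicates, and these counts are a description. No doublet caller was run.

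The genes whose level followed each member most closely were taken from 13834 genes over the 19 sums of source and library, which share libraries, so the correlations are given without a p-value. WNT5A was most like COL6A5 (r = 0.992), EPHA3 and EDIL3, and PDGFRA most like EDIL3 (r = 0.992), IL1RAPL1 and CPXM1. BMP4 was most like TMEM119 (r = 0.974) and LRRC17, with PDGFRA as the third (r = 0.971). BMP5 was most like COL6A3 (r = 0.993), GPC6 and COL4A5. WNT4 was most like FIBIN (r = 0.989), FREM1 and LOC100621607, NRG1 like MMP23B (r = 0.952), TMEM117 and FMOD, and WNT2B like ASB5 (r = 0.941), LOC100525237 and PRELP. GREM1 was most like CRISPLD1 (r = 0.986), SHISA3 and ADAM33. For BMP2 the first was RARRES2 (r = 0.955), followed by CYBRD1 and ACO1.

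The other genes of these pathways were read from lists, also chosen with earlier results of these data known. Of all genes, 8.68% were higher in fibroblast than in endothelial, 14.1% than in epithelial and 2.48% than in muscle barcodes. Of 5 BMP ligands tested, all 5 were higher in fibroblast than in endothelial barcodes, BMP3 (log2 difference 9.04, adjusted p = 3.1e-05 by edgeR) and BMP7 (6.58, adjusted p = 3.6e-05) beside the 3 members. BMP3, BMP7 and BMP4 were also higher than in muscle. Of 3 BMP antagonists tested, BMPER and GREM1 were higher than in endothelial and in epithelial barcodes, and none was called against muscle. Among 5 genes listed as WNT inhibitors, the secreted SFRP1, SFRP2, DKK3 and FRZB were higher than in endothelial barcodes. SFRP1 was higher by 6.41 log2 units (adjusted p = 2.8e-06 by edgeR) and SFRP2 by 10.39 (adjusted p = 9.6e-05). Of 6 WNT ligands tested, WNT5B and WNT6 were higher in fibroblast than in epithelial barcodes beside the 3 members, and WNT6 was lower in fibroblast than in muscle barcodes (log2 difference -6.59, adjusted p = 1.0e-03; 1.92% of all genes lower).

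Several receptors were lower in fibroblast than in epithelial barcodes, as were 14.3% of all genes, while 14.1% were higher. Of 3 genes tested among R-spondins and their receptors, LGR4, a receptor of R-spondins, and RNF43, the ligase that removes WNT receptors, were lower in fibroblast than in epithelial barcodes (log2 difference -1.68, adjusted p = 9.5e-03, and -6.19, adjusted p = 1.1e-03, by edgeR). The WNT target genes AXIN2 and SP5 were lower too (-1.76, adjusted p = 0.030, and -5.91, adjusted p = 1.4e-04), 2 of 7 tested, while CD44 and NKD1 were higher. Of 8 ERBB ligands and receptors, ERBB2, ERBB3, EREG, HBEGF and TGFA were lower in fibroblasts and NRG1 alone was higher. ERBB3, which binds NRG1, was lower by -4.51 log2 units (adjusted p = 6.5e-06). PDGFA, the ligand of PDGFRA, was lower in fibroblast than in epithelial (-4.86, adjusted p = 3.3e-05) and muscle barcodes (-5.67, adjusted p = 2.1e-04). Of 11 WNT receptors, FZD5 was lower in fibroblasts and FZD1, FZD2, FZD4, FZD7, FZD8 and ROR2 were higher than in epithelial barcodes.

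Of 9 genes of subepithelial fibroblasts, all 9 were higher than in endothelial barcodes (median log2 difference 7.49), where 8.68% of all genes were higher. Over muscle barcodes 4 were higher (2.48% of all genes), namely FOXL1, SOX6, POSTN and ADAMDEC1. Of 6 tested crypt-base and adventitial genes, ACKR4, C3, DPT and OGN were higher than in endothelial barcodes and CD34 was lower (4.64% of all genes lower). Between day 0 and day 3, 2 of 5 WNT ligands with at least 10 UMIs were past 2-fold upwards in fibroblast barcodes and 1 downwards, where 14.4% and 7.02% of all genes were. Among R-spondins and their receptors it was 1 of 3 upwards and 2 downwards, and among subepithelial fibroblast genes 1 of 9 upwards and none downwards. Of 5 BMP ligands, BMP3 and BMP7 were past it upwards, and of 6 BMP antagonists GREM1 and CHRD upwards and BMPER downwards.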

How the data were processed

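Ileal cells of 6 libraries, 1 per age, were read with the 10x 3′ assay (kit V3 per the labels, v.2 in the study's methods; the series description names the cecum, the labels the ileum). The authors made the deposited UMI counts with Cell Ranger 3.1.0, STAR and susScr11 per the submitters' processing notes; they are raw, unfiltered and not normalized, and libraries held 77391932 to 100348769 UMIs. The members and lists were chosen with earlier results of these data known.

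Kept barcodes were gated as described, doublets were not called, and barcodes meeting several gates were set aside. The UMIs were summed per library and source (at least 20 barcodes) and tested with edgeR 4.0.16 in R 4.3.3 (TMM, filterByExpr by source, glmQLFit with robust estimation, library as block), tested on simulated data. Sums of 1 library share its animals by construction, and not every library gave every source. P-values measure how far the differences between sources varied between libraries of different ages. That spread is 1 estimate per gene over all 4 sources and all sums, also those of the later days. Intervals (scipy 1.17.1) were exact at 95%. Named genes were the members, list genes with at least 10 UMIs and the 3 genes most correlated with each member on log2(UMIs per 10000 + 0.1), among genes with at least 50 UMIs. Alternatives changed scaling, test (DESeq2 1.42.0), filter, block, libraries, gates, mitochondrial share, PTPRC, depth and thinning. Those restricted to the youngest libraries were added after the data were seen. Protein and promoter sequences were not used here.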

Additional observations from a re-analysis of the deposited data

How the results depend on the processing

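The 6 counts of called members did not change beyond 1.5 times with RLE scaling, without the filter on low counts, without the library block (9, 5, 8, 3, 2 and 5 members in the order of fibroblast over endothelial, muscle and epithelial, muscle over endothelial, endothelial over epithelial and muscle over epithelial, against 9, 5, 8, 3, 2 and 6), with sums of 10 or more barcodes, with doubled gate thresholds, below 25% mitochondrial UMIs or without PTPRC-positive barcodes. DESeq2 called 3 for fibroblast over muscle (2.67% of all genes), 1 for endothelial over epithelial (11.3%) and 3 for muscle over epithelial (9.21%). With barcodes meeting several gates kept in each, the count was 0 for fibroblast over muscle, where the same barcodes then stand in both sources, so that none of 11147 genes was called, and 9 for muscle over endothelial (6.90% of all genes), where the cause was not tested. With days 0 and 1 alone, 4 members were higher in endothelial than in epithelial barcodes (18.8% of all genes). Leaving out 1 library gave 8 to 9 (fibroblast over endothelial), 1 to 6 (over muscle), 7 to 9 (over epithelial), 1 to 3 (muscle over endothelial), 0 to 3 (endothelial over epithelial) and 3 to 6 (muscle over epithelial). The calls over all genes moved as well. In the same order, 931, 266, 1509, 504, 1509 and 1356 of 10720 genes were higher with all libraries. Without day 1 it was 493, 71, 742, 203, 920 and 782 of 9550 genes. The log2 difference of WNT5A between muscle and epithelial barcodes, 4.90, ranged from -2.16 (without day 3) to 5.22 when 1 library was left out. It became -2.43 without PTPRC-positive barcodes and -3.15 with days 0 and 1 alone. Both choices left muscle sums of days 0 and 1 only, where no muscle barcode held a WNT5A UMI. The log2 difference of BMP2 between fibroblast and epithelial barcodes, 0.34 and not called, became -0.0062 with DESeq2. It ranged from -0.027 (without day 3) to 0.56 when 1 library was left out, and the cause was not tested. Apart from this BMP2 comparison, 18 member comparisons were not called. Of these, 10 were called under some alternative and 7 changed sign under some alternative. Without thinning, 21 pairs of members were found together above prediction, against 11; with 2000 UMIs it was 14. Pairs found less often than predicted in all 3 libraries went from 10 to 16 with 2000 UMIs, where a pair with no joint barcode counts however small its prediction. The cause was not tested.

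Sparse UMIs and few stromal barcodes limit these results. RSPO3 had 65 UMIs in all, muscle barcodes numbered 21 to 71 on days 0, 1 and 3, and fibroblast levels could not be given from day 7 on. Age, animals and library cannot be told apart.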
